A study of Mus musculus with 6 samples.

Results

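Transcripts of 6 annexins (Anxa1, Anxa2, Anxa4, Anxa5, Anxa6 and Anxa7) and of 4 sarcolemma repair proteins (Dysf, Cav3, Trim72 and Capn3) were measured in mouse skeletal muscle. The mice either carried a muscle-specific deletion of the gene for the proteasome subunit Rpt3 or were controls. The genes were chosen by name, for the known roles of their products at the muscle membrane and with earlier results of these data known, so that counts of called genes among them are a description, and matched by symbol to the probes of the array. All 10 had a named probe and all 10 were tested, out of 18563 genes with a named probe and 14731 genes tested. Of the 10 genes, 5 were higher and 1 was lower in the mice with the deletion, and all 5 higher genes were annexins. Among all tested genes, 12.7% were called higher and 6.56% lower.

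The arrays held muscle RNA of 3 mice labelled Rpt3 null and 3 mice labelled control, all of them females at 6 weeks of age, with 1 CodeLink mouse whole-genome bioarray per mouse. Rpt3 is encoded by Psmc4 and is an ATPase subunit of the 19S cap of the proteasome. The labels give the strain as mlc1f-Cre/ Rpt3-floxed for both groups, whereas in the study the controls carry Mlc1f-Cre with unfloxed Rpt3, so that Cre is present in both groups. The groups are called Rpt3-/- and Rpt3+/+ mice here. The labels name the tibialis anterior as the tissue, whereas the text of the study names the gastrocnemius, and both are mainly of fast-twitch fibers. The Mlc1f promoter is active in skeletal muscle and, in adults, in fast-twitch fibers. Slow-twitch fibers and other cells of the muscle may therefore keep Rpt3. The study also cites incomplete excision by this Cre and found traces of Rpt3 protein. It proposes that some nuclei of muscle fibers may have kept the gene. Rpt3 was not measured here by cell type. RNA was taken from whole muscle, and in such samples fewer cells of a type and less RNA per cell cannot be told apart.

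The sarcolemma, the plasma membrane of the muscle fiber, tears during contraction and is resealed when calcium flows in through the tear. Annexins are calcium-dependent proteins that bind acidic phospholipids and gather at the wound, where they form a repair cap, while dysferlin, caveolin-3, MG53 (encoded by Trim72) and calpain-3 act in the delivery of vesicles to the wound and in the remodelling of the membrane and the cytoskeleton below it. Loss of dysferlin, calpain-3 or caveolin-3 causes muscular dystrophy or related muscle disease in people.

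Before the values, the promoters of 4 of the called genes are shown, those of Anxa4 and Anxa5, the annexins with the largest rises, of Anxa2, which alone held an AP-1 motif, and of Capn3, the gene that fell. For 9 of the 10 genes the RefSeq table of build GRCm38.p6 held 13 promoters of 300 bases, from 250 bases before to 50 bases after the start of a transcript, and Anxa6 was not in it. Each promoter was searched on both strands for the E-box CANNTG, which muscle factors such as MyoD can bind, for the AP-1 motif TGANTCA, for the SP1 motif GGGCGG and for the CArG box of serum response factor. Printed below are the 250 bases before the start, 5′ to 3′ on the strand of the gene, with E-box and AP-1 motifs in capitals and the other motifs left unmarked. The promoters of Anxa4 are at chr6:86793585-86793834 and chr6:86775115-86775364 on the minus strand, that of Anxa5 at chr3:36475888-36476137 on the minus strand and that of Anxa2 at chr9:69453433-69453682 on the plus strand. The promoters of Capn3 are at chr2:120463343-120463592 and chr2:120476659-120476908 on the plus strand.
Anxa4, promoter 1: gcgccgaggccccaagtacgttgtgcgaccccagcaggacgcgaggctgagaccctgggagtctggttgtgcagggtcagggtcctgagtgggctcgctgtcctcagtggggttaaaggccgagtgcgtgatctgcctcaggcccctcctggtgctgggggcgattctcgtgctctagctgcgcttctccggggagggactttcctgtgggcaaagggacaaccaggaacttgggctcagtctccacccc
Anxa4, promoter 2: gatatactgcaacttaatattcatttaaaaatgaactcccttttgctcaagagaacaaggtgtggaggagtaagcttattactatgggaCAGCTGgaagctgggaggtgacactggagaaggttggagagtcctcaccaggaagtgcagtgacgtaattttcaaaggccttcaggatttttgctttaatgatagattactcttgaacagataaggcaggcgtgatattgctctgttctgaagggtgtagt
Anxa5: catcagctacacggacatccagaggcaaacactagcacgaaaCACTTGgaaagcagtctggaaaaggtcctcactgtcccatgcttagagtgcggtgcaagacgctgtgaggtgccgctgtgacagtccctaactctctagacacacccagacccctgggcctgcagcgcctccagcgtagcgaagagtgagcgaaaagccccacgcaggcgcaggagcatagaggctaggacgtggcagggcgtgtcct
Anxa2: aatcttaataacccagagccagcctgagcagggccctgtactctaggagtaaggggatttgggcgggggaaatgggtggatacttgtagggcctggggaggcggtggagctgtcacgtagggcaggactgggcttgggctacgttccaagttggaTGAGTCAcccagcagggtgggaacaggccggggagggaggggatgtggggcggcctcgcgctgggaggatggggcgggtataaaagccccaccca
Capn3, promoter 1: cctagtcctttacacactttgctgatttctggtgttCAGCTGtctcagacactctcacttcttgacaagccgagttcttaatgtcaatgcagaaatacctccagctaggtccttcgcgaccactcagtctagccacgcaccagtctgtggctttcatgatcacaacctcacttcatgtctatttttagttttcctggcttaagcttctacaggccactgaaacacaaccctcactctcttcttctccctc
Capn3, promoter 2: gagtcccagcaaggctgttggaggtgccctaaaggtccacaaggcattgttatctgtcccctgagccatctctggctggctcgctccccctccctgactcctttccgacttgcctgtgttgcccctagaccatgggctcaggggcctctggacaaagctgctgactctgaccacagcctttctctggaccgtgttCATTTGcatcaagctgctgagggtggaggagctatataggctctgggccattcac
The first stretch of Anxa4 held neither motif and the second held 1 E-box at position -161 from the start, that of Anxa5 held 1 E-box at position -208, each counted at the first base, and that of Anxa2 held an AP-1 motif at position -95 and no E-box. Each promoter of Capn3 held 2 E-boxes, at -214 and 4 in the first and at -55 and 28 in the second, of which those after the start are not printed. Over all members, 10 of 13 promoters held an E-box, against 72.3% of all 32851 promoters of that length. An AP-1 motif was found in 1 of 13, against 7.81%, the SP1 motif in 6 of 13, against 35.7%, and a CArG box in 1 of 13, that of Anxa5, against 1.63%. In Anxa7 an SP1 motif and an E-box overlapped, and the 2 promoters of Anxa7 overlapped each other, so that they share motifs. A match of letters is a description and not a bound site, and binding was not measured here.

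All values below are log2 intensities, the brightness of a gene's probe after background correction with an offset of 50 and quantile normalization of the 6 arrays. A difference of 1 on this scale is a doubling, and the offset draws the differences of dim probes toward 0. Differences were tested with limma, a linear model fitted over all 14731 genes, with Benjamini-Hochberg adjustment over those genes, and genes with an adjusted p under 0.05 are called higher or lower in Rpt3-/- mice. Of all tested genes, 12.7% were called higher, 6.56% lower and 19.3% in either direction. Between 57.0% and 74.5% of the probes of an array were above background, and the second Rpt3+/+ array was the dimmest. Psmc4 itself read 10.01, 9.78 and 9.85 in Rpt3-/- and 11.16, 10.91 and 11.06 in Rpt3+/+ mice by its brighter probe, a log2 fold change of -1.17 (SE 0.13, adjusted p = 0.00031 by limma), and its other, dim probe gave -0.23. Whether either probe falls within the floxed segment is not given, and a probe outside it would not check the labels. The sources do not name how mice were paired or handled together. The p-values set the difference of the group means against the spread within the groups, which limma estimates with the help of all genes. The number of 3 arrays a group limits the precision.

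Of the 6 annexins, 5 were called higher in Rpt3-/- mice and none lower (5 and 0 at an unadjusted p under 0.05 by limma), with log2 fold changes between 0.31 and 1.47 and a median of 0.96. The median over all tested genes was -0.01. For all 6 annexins each Rpt3-/- array lay above each Rpt3+/+ array, which was so for 21.2% of all tested genes. The probes used for all 10 members were above background on all 6 arrays, so that no member was tested through one group alone.

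Anxa4, which encodes an annexin that assembles on the inner face of membranes and is best known from epithelia, had the largest difference and the lowest adjusted p of the 10 genes. Its log2 intensity was 10.16, 9.99 and 10.09 in the 3 Rpt3-/- mice, against 8.46, 8.73 and 8.64 in the 3 Rpt3+/+ mice. The gap between the groups was several times the spread within them, with means of 10.08 ± 0.08 (SD, n = 3) and 8.61 ± 0.14 (SD, n = 3). The log2 fold change was 1.47 (SE 0.13, adjusted p = 8.28e-05 by limma), or 2.77-fold. On the linear scale of the authors' value table, which carries no offset, the ratio of the group means was 3.02, with 1045 ± 64.7 (SD, n = 3) in Rpt3-/- and 346 ± 37.3 (SD, n = 3) in Rpt3+/+ mice.

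Anxa5 encodes the annexin that binds phosphatidylserine, forms lattices on torn membranes and is used in the laboratory to stain dying cells. By its brighter probe the log2 intensity was 9.39, 9.16 and 9.46 in the Rpt3-/- mice, against 7.99, 8.29 and 8.27 in the Rpt3+/+ mice. The groups were far apart, with a log2 fold change of 1.15 (SE 0.14, adjusted p = 0.000507 by limma), or 2.22-fold. A second probe of Anxa5 was dim, above background on 3 Rpt3-/- and 2 Rpt3+/+ arrays, and read 6.86, 6.86 and 7.09 against 6.75, 6.67 and 6.86. By that probe the groups overlapped at 6.86 to 2 decimals and the log2 fold change was 0.18 (SE 0.13, adjusted p = 0.417 by limma over probes), so that the probes of Anxa5 disagree in size. With the mean of both probes the log2 fold change was 0.66 (adjusted p = 0.00571 by limma).

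Anxa7 encodes synexin, an annexin that promotes the fusion of membranes. Its log2 intensity was 11.05, 11.24 and 11.15 in the Rpt3-/- mice, against 10.42, 9.59 and 10.01 in the Rpt3+/+ mice. The Rpt3+/+ arrays were spread more widely than the Rpt3-/- arrays (SD 0.41 against 0.09, n = 3 each), and the lowest value was that of the second, dimmest Rpt3+/+ array. The log2 fold change was 1.14 (SE 0.19, adjusted p = 0.00275 by limma), and it was 0.94 (adjusted p = 0.00137 by limma) without that array. The study names an unpaired parametric test for its measurements in general and, for the pathway analysis of the arrays, describes a fold-change cutoff. That test, called the methods' test here, did not pass for Anxa7 after an adjustment added here (adjusted p = 0.0709).

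Anxa2, whose product forms a complex with the small calcium-binding protein S100A10 and links membranes to actin, had log2 intensities of 9.71, 9.76 and 9.85 in the Rpt3-/- mice, against 8.88, 9.10 and 9.004 in the Rpt3+/+ mice. The groups were separated by more than the spread within either, with a log2 fold change of 0.78 (SE 0.12, adjusted p = 0.00209 by limma), or 1.71-fold. Anxa1, whose product is induced by glucocorticoids and restrains the entry of neutrophils into tissue, read 10.44, 10.28 and 10.53 against 9.73, 10.05 and 9.82. The gap from the lowest Rpt3-/- array to the highest Rpt3+/+ array was narrow, and the log2 fold change was 0.55 (SE 0.14, adjusted p = 0.0197 by limma), or 1.46-fold. Anxa1 was the called annexin nearest to the threshold and failed when the first (adjusted p = 0.0742) or the third (0.0868) Rpt3-/- mouse, or the third Rpt3+/+ mouse (0.0963), was left out.

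Anxa6, whose product has a duplicated annexin core and is part of the repair cap of muscle fibers, was the annexin that was not called. It read 10.20, 9.83 and 9.96 in the Rpt3-/- mice, against 9.80, 9.71 and 9.54 in the Rpt3+/+ mice. The groups did not overlap, but the second Rpt3-/- array and the first Rpt3+/+ array were almost level. The log2 fold change was 0.31 with a 95% interval from -0.0043 to 0.63 (adjusted p = 0.162 by limma), an interval that holds both 0 and the value of Anxa1.

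Set in order of the difference, the annexins ran Anxa4, Anxa5, Anxa7, Anxa2, Anxa1 and Anxa6, and the 95% intervals of neighbours in this order overlapped throughout. The interval of Anxa4, from 1.18 to 1.76, lay above those of Anxa2, from 0.50 to 1.06, of Anxa1, from 0.24 to 0.86, and of Anxa6. These differences between genes were not tested. The arrays of 1 group also kept a common order among several annexins, but not among all 6. The first Rpt3+/+ array was the lowest of its group for Anxa1, Anxa2, Anxa4 and Anxa5, but the highest for Anxa6 and Anxa7. The second Rpt3-/- array was the lowest of its group for Anxa1, Anxa4, Anxa5 and Anxa6, but the highest for Anxa7. How often such an order occurs over all tested genes was not counted.

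**Figure D1:**
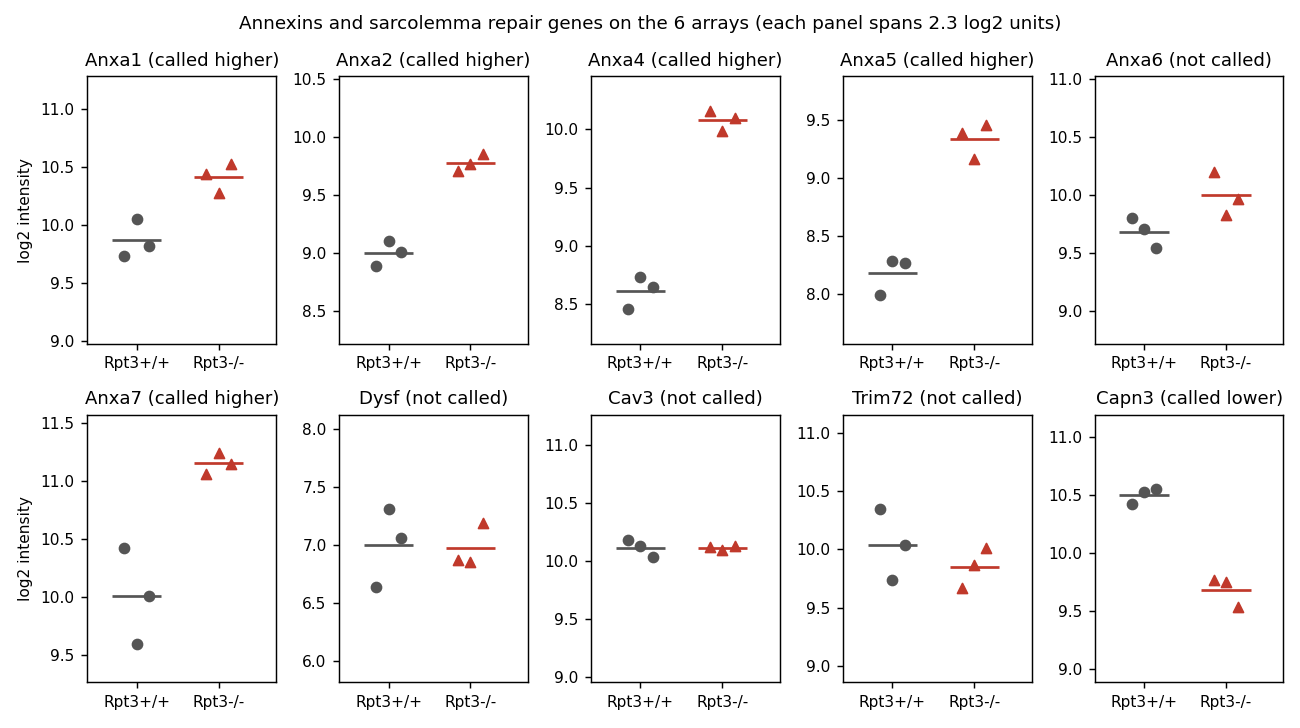
Log2 intensity of each of the 10 genes on the 6 arrays, 1 panel per gene, with Rpt3+/+ arrays as grey circles, Rpt3-/- arrays as red triangles and a line at each group mean; every panel spans the same number of log2 units. The groups do not overlap for the 6 annexins, which are higher in Rpt3-/- mice, and for Capn3, which is lower, whereas they overlap for Dysf, Cav3 and Trim72; with the arrays centred on Actb the difference of Anxa6 turns to -0.22 and that of Anxa1 falls to 0.02.

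The scale on which the arrays are set against each other touches these differences. Before centring on Actb, the β-actin gene, the arrays were set to a common median in place of quantile normalization. Actb was itself called higher with quantile normalization (log2 fold change 0.45, adjusted p = 0.0294 by limma). The median over all tested genes was -0.01 with quantile normalization, 0.05 with median centring alone and -0.72 after centring on Actb. On that scale Anxa4, Anxa5 and Anxa7 were called higher with log2 fold changes of 0.88, 0.52 and 0.64, Anxa2 stood at 0.19 and Anxa1 at 0.02, neither of them called, and Anxa6 turned to -0.22, not called. Relative to the median of all genes on the same scale, the 6 annexins lay between 0.49 (Anxa6) and 1.60 (Anxa4) above it. Over the other alternatives run, each annexin kept its direction.

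None of the 4 repair proteins was called higher in Rpt3-/- mice by limma, and 1 was called lower (0 and 1 also at an unadjusted p under 0.05, and by the methods' test). Their log2 fold changes ranged from -0.81 to 0.00, with a median of -0.11. The groups did not overlap for 1 of the 4, Capn3, with Rpt3-/- below Rpt3+/+, as for 15.6% of all tested genes. Capn3 encodes calpain-3, a muscle-specific calcium-dependent protease that is bound to titin in the sarcomere and takes part in the remodelling of the membrane with dysferlin. Its log2 intensity was 9.77, 9.75 and 9.54 in the Rpt3-/- mice, against 10.42, 10.53 and 10.55 in the Rpt3+/+ mice. All Rpt3-/- arrays were well below all Rpt3+/+ arrays, with means of 9.69 ± 0.13 (SD, n = 3) and 10.50 ± 0.07 (SD, n = 3). The log2 fold change was -0.81 (SE 0.13, adjusted p = 0.00181 by limma), a level 1.76-fold lower, and it passed under all 18 alternatives, with values between -1.35 and -0.58.

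Cav3 encodes caveolin-3, the caveolin of muscle, which shapes the caveolae of the sarcolemma and holds dysferlin at the surface. It read 10.13, 10.09 and 10.13 in the Rpt3-/- mice, against 10.18, 10.13 and 10.03 in the Rpt3+/+ mice. The groups lay on top of each other with little spread (SD 0.02 and 0.08, n = 3 each), and the log2 fold change was 0.00 with a 95% interval from -0.26 to 0.27 (adjusted p = 0.999 by limma). This was the narrowest interval of the 10 genes.

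Dysf encodes dysferlin, a ferlin with many calcium-binding C2 domains that is needed for the fusion of vesicles at the wound. It read 6.87, 6.86 and 7.19 in the Rpt3-/- mice, against 6.64, 7.31 and 7.07 in the Rpt3+/+ mice. The groups overlapped, and both the lowest and the highest value were from Rpt3+/+ mice. The log2 fold change was -0.03 with a 95% interval from -0.44 to 0.38 (adjusted p = 0.932 by limma). The probe was the dimmest of the members' brightest probes, with raw intensities above local background between 62.2 and 94.4, and on the value table without an offset the ratio of the group means was 0.944. Trim72 encodes MG53, a muscle protein of the tripartite motif family that gathers vesicles at the wound when the cell interior is oxidized. It read 9.67, 9.86 and 10.02 in the Rpt3-/- mice, against 10.35, 9.74 and 10.04 in the Rpt3+/+ mice. The groups overlapped, and the log2 fold change was -0.19 with a 95% interval from -0.58 to 0.19 (adjusted p = 0.492 by limma). For Dysf, Cav3 and Trim72 these intervals do not reach the rise of Anxa4, Anxa5 or Anxa7, but a test that was not passed does not show that the levels were the same. With the arrays centred on Actb these 3 genes were called lower, with log2 fold changes of -0.77, -0.53 and -0.72, against the median of -0.72 of all tested genes on that scale.

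Markers of other cells and fiber types moved between the groups as well. Of the 14 macrophage markers listed, 10 were tested, 6 were higher and none was lower, with Ctss at a log2 fold change of 2.68. The summed level of the list on the linear scale was between 5214 and 6547 in Rpt3-/- and between 2281 and 2552 in Rpt3+/+ mice. Among the defining markers, Adgre1 was above background on 1 array and Itgam on 2, so that they were not tested, and Cd68 and Csf1r had no named probe. Of the 6 markers of regenerating or immature fibers all 6 were higher, with a median log2 fold change of 2.69, and their summed level was between 7162 and 11198 in Rpt3-/- and between 1193 and 1361 in Rpt3+/+ mice. Tnnt2 and Chrng of this list and Aif1 of the macrophage list were above background on 1 Rpt3+/+ array only. These genes passed the filter only through the group in which they were high. Within the Rpt3-/- group, the second array had the lowest sum of both lists. It was also the lowest for 4 of the 6 annexins, but the highest for Anxa7. Within the Rpt3+/+ group, the first array had the lowest sum of regenerating fiber markers but the highest macrophage sum (2552). That array was the lowest of its group for Anxa1, Anxa2, Anxa4 and Anxa5, but the highest for Anxa6 and Anxa7. With 3 arrays a group, an order shared by a list and a gene tells little, and a link between them was not tested.

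Of 10 fibroblast markers 3 were higher and none was lower, with sums between 29048 and 31100 in Rpt3-/- and between 19933 and 23750 in Rpt3+/+ mice. Of 7 markers of slow fibers 5 were higher and none was lower, with sums between 22015 and 22817 against sums between 14316 and 17511. Myh7 (0.37) and Myl3 (-0.25) were not called. The number higher was 4 without the third Rpt3+/+ array or any 1 Rpt3-/- array, and 6 without the second Rpt3+/+ array. Of 10 markers of fast fibers 1 was higher and 1 was lower, with sums between 196570 and 203540 against sums between 206965 and 223337. All 10 listed markers of fast fibers, the main fibers of the labelled muscle, were above background on all 6 arrays. Of these, 8 were among the 50 brightest of 34967 probes on every array, where quantile normalization sets the values almost fully. The flag for saturation was carried by 6 of the 10 on 1 or more arrays. The sums of this list and the absence of calls among those 8 therefore tell little about a difference. The called genes, Myh1 (higher, 0.70) and Actn3 (lower, -0.64), were not in that range on every array, and neither was any slow fiber marker. Of the neutrophil markers 2 were tested and called higher, S100a8, above background on all 6 arrays, and Retnlg, which was above background on the 3 Rpt3-/- arrays and on no Rpt3+/+ array and so was tested only through the group in which it was high. The sums of both were between 341 and 590 against sums between 187 and 197, while S100a9 and Mpo were above background on no array. Of 4 tested satellite cell markers 1 was higher (Sdc4, sums of the list between 1606 and 1728 against sums between 899 and 1123), and Pax7 was above background on no array. Of 3 tested adipocyte markers 1 was higher, with sums between 7253 and 7982 against sums between 5762 and 6491. All these linear sums are weighted toward the brightest genes of a list. In the adipocyte list that gene was Fabp4, which was not called (log2 fold change 0.28), and Cidec went the other way (-0.25, not called). The T cell list (3 tested, sums between 793 and 809 against sums between 673 and 860) and the Schwann cell list (4 tested, sums between 638 and 709 against sums between 555 and 669) held no called gene by limma. Cd3e, Cd8a and Lep were above background on no array. At an unadjusted p under 0.05 limma gave none in either of these lists, and the methods' test gave 1 higher gene in the Schwann cell list. Without the third Rpt3+/+ array 1 fibroblast marker was called higher, 1 neutrophil marker was and no fast fiber marker was called lower, 1 neutrophil marker was called when either the first or the third Rpt3-/- mouse was left out, and 2 satellite cell markers were called without the second Rpt3+/+ array. Annexins are expressed in many of these cells. The part of these cells in the differences of the annexins and of Capn3 was not tested.

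**Figure D2:**
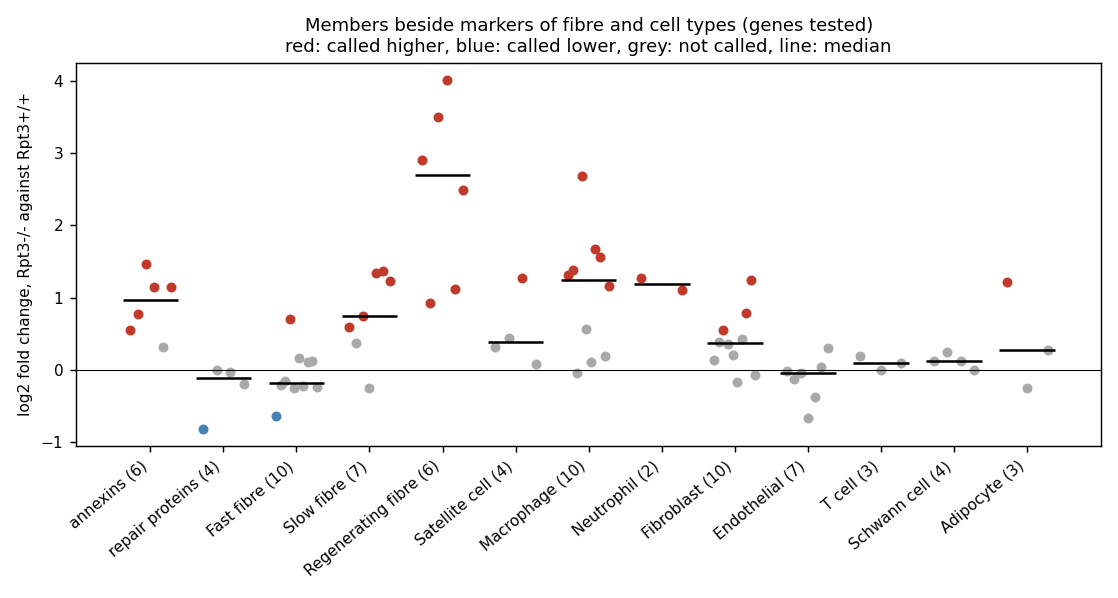
Log2 fold change of Rpt3-/- against Rpt3+/+ mice for each tested gene of the annexins, the repair proteins and the marker lists, with the number of tested genes in brackets, the median as a line and colour for called higher (red), called lower (blue) and not called (grey). The annexins have a median of 0.96 and the repair proteins of -0.11, beside 1.24 for macrophage, 2.69 for regenerating fiber, 0.37 for fibroblast and -0.05 for endothelial cell markers; with the arrays centred on Actb, Anxa6 turns to -0.22.

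Other genes of the repair pathway were taken from 8 lists written by role. Of the 48 genes listed, 44 had a named probe and 41 were tested, with 12 called higher and 4 called lower in Rpt3-/- mice (12.7% and 6.56% of all tested genes), and a median log2 fold change of 0.06. Anxa9, Anxa10, Fer1l6 and Ehd2 had no named probe, and Myof, Anxa13 and Fer1l5 were above background on too few arrays to be tested.

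Of the 5 genes of the list of S100 partners of annexins and AHNAK proteins 4 were higher. S100a10, which encodes the partner of annexin A2, read 9.001, 8.54 and 8.83 in the Rpt3-/- mice, against 7.33, 7.87 and 7.55 in the Rpt3+/+ mice. S100a11, which encodes a partner of annexin A1, read 10.51, 9.97 and 10.22 against 8.77, 9.22 and 8.87. The groups of both genes were separated by more than the spread within them. The log2 fold changes were 1.21 for S100a10 (adjusted p = 0.00123 by limma), 1.28 for S100a11 (adjusted p = 0.000907 by limma) and 1.34 for Ahnak2, which encodes a giant scaffold protein (adjusted p = 0.00068 by limma). S100a6, named here after its value was seen, was higher with a log2 fold change of 0.86 (adjusted p = 0.0101 by limma) and did not pass without the third Rpt3+/+ array (adjusted p = 0.0575). The gene of the list that was not called was Ahnak, also named after its value was seen. Its log2 fold change was -0.15 (adjusted p = 0.454 by limma), and its groups overlapped. For S100a10, S100a11 and Ahnak2, as for Anxa4 and Anxa5, the second Rpt3-/- array and the first Rpt3+/+ array were the lowest of their groups. Of the 3 other annexins that were tested, Anxa3, Anxa8 and Anxa11, none was called by limma, none had an unadjusted p under 0.05 and none passed the methods' test, and the gene of lowest adjusted p was Anxa8 with a log2 fold change of -0.13 (adjusted p = 0.631 by limma).

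Cav1 and Cav2, which encode the caveolins of endothelial cells, adipocytes and many other cells, and Cavin2, which encodes a coat protein of caveolae, were lower, in contrast to the level values of Cav3. Cav1 read 8.92, 9.53 and 9.57 in the Rpt3-/- mice, against 10.02, 11.29 and 11.26 in the Rpt3+/+ mice, so that the groups were apart but the first Rpt3+/+ array was well below the other 2. The log2 fold changes were -1.51 for Cav1 (adjusted p = 0.0086 by limma), -1.13 for Cav2 (adjusted p = 0.0208 by limma) and -0.76 for Cavin2 (adjusted p = 0.0437 by limma). Cav1 did not pass without the first Rpt3-/- array (adjusted p = 0.058), Cav2 failed when the first (0.105) or the third (0.0767) Rpt3-/- mouse, or the third Rpt3+/+ mouse (0.0923), was left out, and Cavin2 passed only without the first Rpt3+/+ array among the 6 fits with 1 array left out. Cavin3, named here after its value was seen, was higher, with a log2 fold change of 0.71 (adjusted p = 0.00422 by limma). Of the 7 tested endothelial markers none was called by limma, and at an unadjusted p under 0.05 none was higher and 1 was lower. Their summed level was between 2293 and 2574 in Rpt3-/- and between 2406 and 2917 in Rpt3+/+ mice, and without the first Rpt3+/+ array 2 were called lower. The part of endothelial cells in the values of Cav1, Cav2 and Cavin2 was not tested.

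In the list of calpains and calpastatin 1 of 4 genes was called. Capns1 encodes the small regulatory subunit of calpain-1 and calpain-2. Capns1 read 12.20, 12.35 and 12.35 in the Rpt3-/- mice, against 11.15, 11.12 and 11.27 in the Rpt3+/+ mice. Its log2 fold change was 1.12 (adjusted p = 0.000274 by limma), in the direction opposite to that of Capn3. Otof, which encodes the ferlin of inner hair cells, was the only called gene among the 3 tested other ferlins and anoctamin, with a log2 fold change of -0.57 (adjusted p = 0.0196 by limma), and it failed when the first or the third Rpt3-/- mouse, or the third Rpt3+/+ mouse, was left out (adjusted p from 0.0714 to 0.0827).

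Among the 6 tested genes of EHD proteins and membrane remodelling 1 was called, Ehd4, which encodes an ATPase that bends membranes of the endosome. It read 10.13, 9.68 and 10.02 against 8.28, 8.96 and 8.69, a log2 fold change of 1.30 (adjusted p = 0.00132 by limma). Here too the second Rpt3-/- array and the first Rpt3+/+ array were the lowest of their groups. Dnm2, which encodes a dynamin and was named after its value was seen, was also called higher without the second Rpt3+/+ array (0.52, adjusted p = 0.0204 by limma), against 0.38 (adjusted p = 0.116) with all arrays. Of the 7 genes of ALG-2 and ESCRT, the machinery that pinches off damaged membrane, 3 were higher and none was lower. Pdcd6, which encodes the calcium sensor ALG-2, rose by a log2 fold change of 0.97 (adjusted p = 0.000916 by limma), and the ESCRT-III subunit genes Chmp2a and Chmp4b had 0.72 (adjusted p = 0.00567 by limma) and 0.69 (adjusted p = 0.00497 by limma). Of the 7 genes of exocytic fusion 2 were higher, the SNARE genes Stx4a with 0.65 (adjusted p = 0.0051 by limma) and Vamp8 with 0.43 (adjusted p = 0.0434 by limma). Vamp8 passed in 1 of the 6 fits with 1 array left out, the one without the second Rpt3+/+ array, and with the arrays centred on Actb it turned to -0.22, not called. On that scale the other 15 called genes of the pathway kept their direction, but 6 of the higher ones were no longer called, namely Pdcd6 (0.42), S100a6 (0.38), Chmp2a (0.22), Cavin3 (0.17), Chmp4b (0.14) and Stx4a (0.13), while 5 higher and all 4 lower genes were still called. Without the first Rpt3+/+ array 2 other genes of exocytic fusion were called lower, Snap23 with -1.19 (adjusted p = 0.000179 by limma) and Vamp7 with -0.44 (adjusted p = 0.0445), against -0.82 (adjusted p = 0.0654) and -0.21 (adjusted p = 0.515) with all arrays. Both were named after their values were seen.

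**Figure D3:**
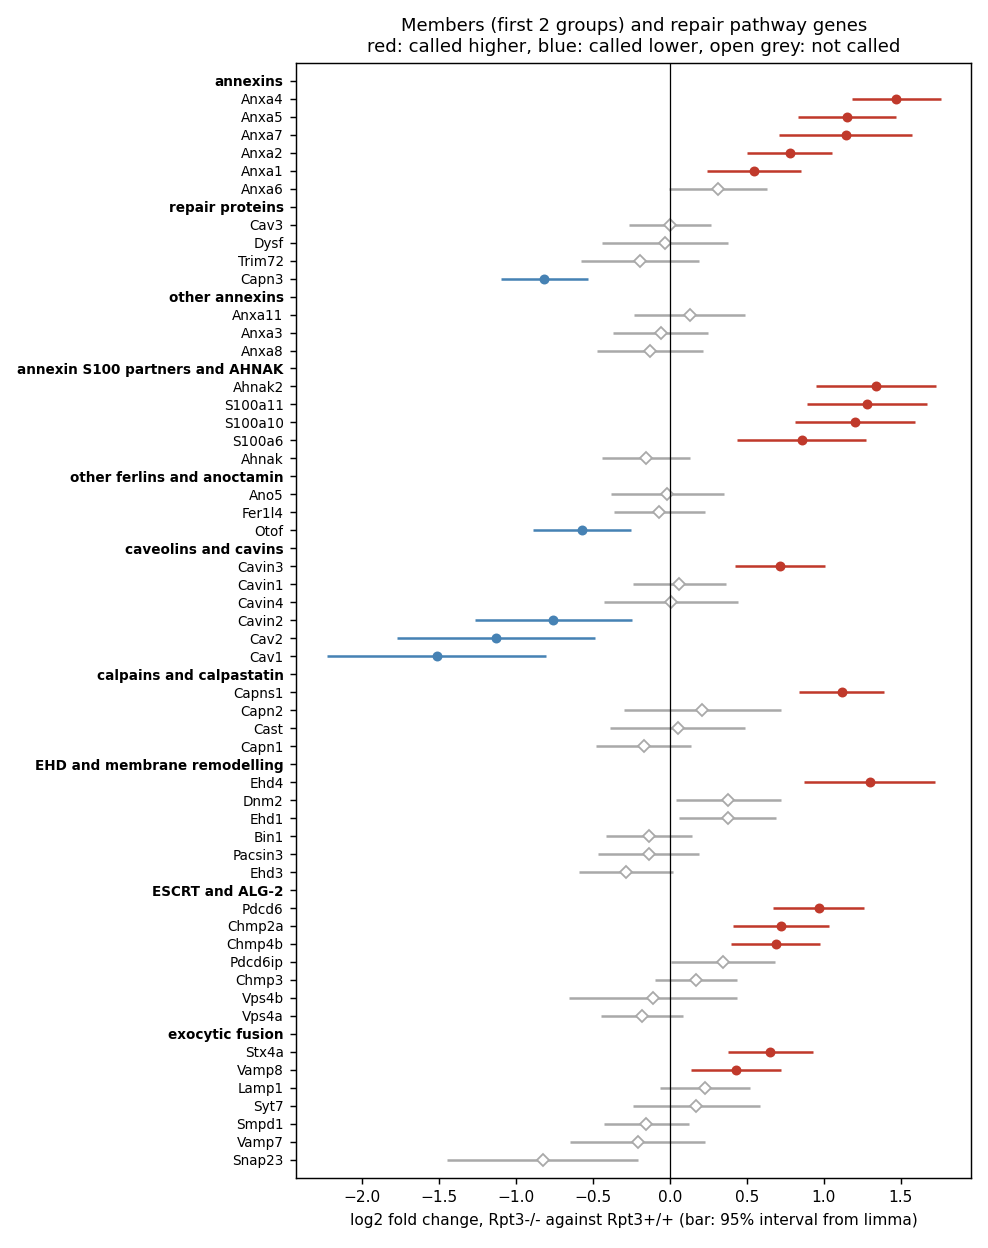
Log2 fold change of Rpt3-/- against Rpt3+/+ mice with its 95% interval from limma for the 10 members, in the first 2 groups, and for the 41 tested genes of the repair pathway, with colour for called higher (red), called lower (blue) and not called (open grey). The intervals of 5 annexins, of S100a10, S100a11 and Ahnak2, of Capns1, Ehd4 and Pdcd6 lie above 0 and those of Capn3, Cav1 and Cav2 below it; the interval of Anxa6, from -0.0043 to 0.63, reaches 0, and with the arrays centred on Actb its value turns to -0.22.

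The genes whose pattern over the 6 arrays was most like that of Anxa4 were found by the root mean square difference of log2 intensities, each centred on its own mean over the arrays. They were Spg21 (0.0447 log2 units), Cgref1 (0.0613) and Nup93 (0.0646). Spg21 read 9.83, 9.72 and 9.72 in the Rpt3-/- mice, against 8.17, 8.44 and 8.41 in the Rpt3+/+ mice, which is nearly the course of Anxa4 at another level. This measure is a description over 6 arrays, in which the difference between the groups is the main part.

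**Figure D4:**
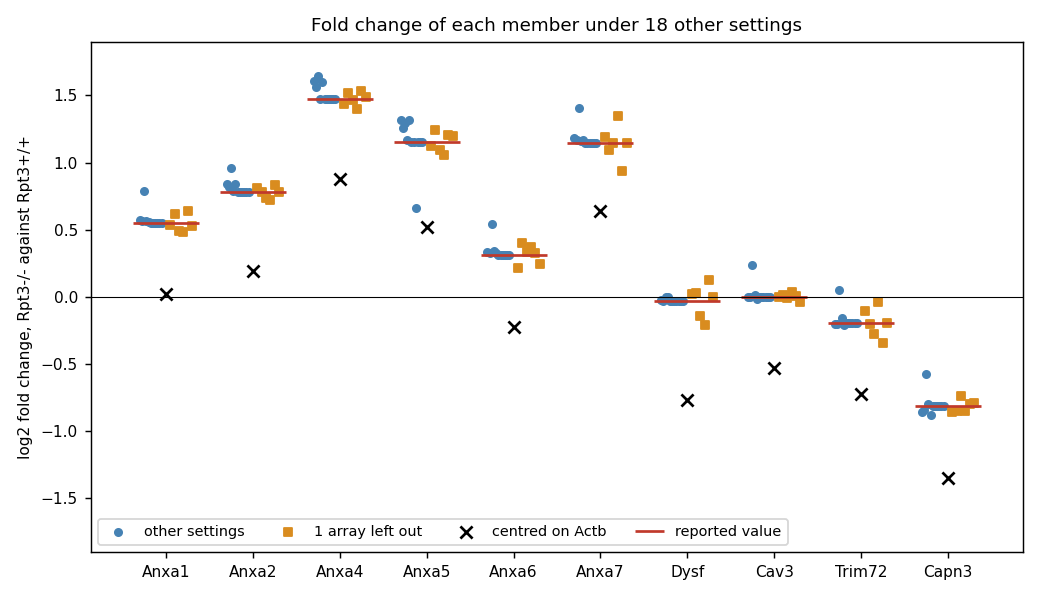
Log2 fold change of each of the 10 genes under 18 alternative settings, with a red line at the reported value, orange squares where 1 array was left out, black crosses where the arrays were centred on Actb and blue circles for the other settings. Anxa4, Anxa5, Anxa7 and Anxa2 stay above 0 and Capn3 below 0 throughout, Anxa1 comes down to 0.02 and Anxa6 to -0.22 with Actb centring, and Dysf, Cav3 and Trim72 lie around or below 0.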

How the data were processed

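Single-colour CodeLink arrays of 3 Rpt3-/- and 3 Rpt3+/+ mice were used, grouped by the labels null and control. Per the file headers, CodeLink Expression Analysis 5.0.0.31312 wrote the deposited scanner reports, with an intensity for each spot and its local background and no normalization. A second deposited table gives linear intensities, which by its values is background-subtracted and quantile normalized, a step not given in the sources used here. Masked spots were left out. The platform annotation gave the gene names of probes, RefSeq accessions named another 536, and 681 probes with several symbols were left unnamed.

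Background correction used normexp (offset of 50), followed by removal of 1260 control spots, quantile normalization and a fit of the log2 values across all genes by lmFit and eBayes in limma 3.58.1 (R 4.3.3). Tested genes had a probe above background on 3 or more arrays, and where several probes named 1 gene the brightest was used. Named genes were all members, Psmc4, in each role list up to 3 called genes with the largest change or else the gene of lowest adjusted p, and the 3 genes nearest to Anxa4. Members and lists were chosen with earlier results of these data known. Alternatives were another background correction and offset, other normalizations, other filters, the mean of probes, the value table, another variance model, a replicate block, the methods' test and fits that each lack 1 array. The scripts were tested on simulated data in which most genes were unchanged. Of 50 genes raised by 1 log2 unit 26 were called, and of 50 lowered by 1 unit 30 were. Of 50 genes raised 1.5-fold 10 were called, and of 50 lowered 1.5-fold 7 were. Of 14531 unchanged genes 2 were called. The median estimate for a rise of 1 unit was 0.82. In the simulation many changes were thus missed and sizes were drawn toward 0. Far fewer genes were changed there than were called on the arrays, which makes the adjusted threshold harder to pass. The counts therefore do not give the share of true changes missed on the arrays. Files were read with Python 3.11.15.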

Additional observations from a re-analysis of the deposited data

How the results depend on the processing

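Over the 18 alternatives, Anxa4, Anxa5 and Capn3 kept their direction and passed throughout (adjusted p at most 0.0116, 0.0359 and 0.0215 from limma or the methods' test). Anxa2 failed only with Actb centring (0.19, adjusted p = 0.433) and Anxa7 only by the methods' test. Anxa1 passed in 11 of 18 and failed with the background subtracted (adjusted p = 0.05003), the value table (0.0576), the methods' test (0.0740), Actb centring (0.932) and in the 3 fits with an array left out that the report names. Anxa6 passed only with median centring (0.54, adjusted p = 0.0359). The number of members called higher was 3 with Actb centring and 3 by the methods' test, and 4 to 5 with 1 array left out. The number called lower was 4 with Actb centring and 1 with any 1 array left out. Of the pathway genes 5 were higher and 22 lower with Actb centring, 2 were lower with the background subtracted and 2 with the value table, and 0 were lower by the methods' test after adjustment (3 without it). With 1 array left out, 10 to 13 pathway genes were higher and 0 to 6 lower, with 0 lower without the first Rpt3-/- array and 1 without the third array of either group. The cause of these changes was not tested.

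The sign turned for Anxa6 with Actb centring (-0.22), for Trim72 with median centring (0.0477), and for Cav3 with Actb centring (-0.53, adjusted p = 0.0323), the value table (-0.0162) and 1 array left out (from -0.0397 to 0.0352). For Dysf it turned with cyclic loess (0.0019) and with 1 array left out (from -0.21 to 0.12, the highest without the second Rpt3+/+ array). Over all genes, 1870 were higher and 967 lower, against 2556 and 600 with median centring, 328 and 10329 with Actb centring, 940 and 427 after adjustment of the methods' test (2502 and 1636 before it), 1258 and 475 without the first Rpt3-/- array, 1155 and 543 without the third, and 1081 and 387 without the third Rpt3+/+ array. Same-numbered arrays were not treated as paired in the main fit, since the sources name no pairing. Their deviations from the group means correlated at 0.126, -0.44 and 0.0976, and 1 of 3 Rpt3-/- arrays correlated best with its own number. With 3 arrays a group, such correlations cannot show whether mice were paired or handled together. With the replicate block 5 members were higher and 1 lower, 11 pathway genes were higher and 5 lower, and 1722 and 873 of all genes. The offset, the dim second Rpt3+/+ array and 3 arrays a group limit what can be seen for dim probes such as that of Dysf.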
